A study of Homo sapiens with 6 samples.

Results

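The genes described are YAP1 and WWTR1, which encode the transcriptional coactivators YAP and TAZ, the TEAD factors TEAD1, TEAD3 and TEAD4, and the target genes CCN1 (older symbol CYR61), CCN2 (older symbol CTGF), ANKRD1, AMOTL2 and LATS2. They were taken by gene symbol from the deposited expression table, which held all 10 of them among 57688 rows. Levels were measured by RNA sequencing in WM3248, a cell line grown from a human primary melanoma. In the siPGC1a group (n = 3 libraries) the cells had received an siRNA against PPARGC1A, the gene of the coactivator PGC1-alpha. In the siNC group (n = 3 libraries) they had received the AllStars negative control siRNA. Both siRNAs were given at 30 nM with Lipofectamine 2000, and RNA was collected 48 h later. The cells all came from 1 line and were transfected with a single catalogue siRNA per group, so an effect of the PPARGC1A siRNA on other transcripts and an effect of the loss of PPARGC1A cannot be told apart. Nothing in the labels says that libraries of a group are separate cultures, and p-values then measure only the spread between these libraries, which may be technical.

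YAP and TAZ are the output of the Hippo pathway. The kinases MST and LATS phosphorylate both proteins, which holds them in the cytoplasm and leads to their breakdown, and cell contact, a soft matrix or loss of actin tension favours that state. In the nucleus YAP and TAZ bind no DNA themselves but join TEAD factors on a short DNA word, often beside AP-1 factors, and switch on genes of matrix signalling, growth and the cytoskeleton. Several targets feed back, since LATS2 is a kinase of the pathway and AMOTL2 is a scaffold that holds YAP outside the nucleus. In melanoma, high YAP and TAZ activity is known from invasive and drug-tolerant cells. Transcript levels do not show the phosphorylation or location of the proteins, and how dense the cells were at harvest is not stated in the labels.

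The TEAD word marks the start regions of several of these genes, which is why their promoters are shown. RefSeq windows of 300 bases (250 before and 50 after a transcription start, build GRCh38.p14) were found for 7 of the 10 genes, 9 windows in all. CCN1, TEAD1 and TEAD4 are named only. The TEAD core word GGAATG, searched on both strands, lay in 5 of the 9 windows. These were the windows of YAP1, CCN2, ANKRD1, LATS2 and the second start of AMOTL2. The word lay in 14.0% of all 35116 windows and in 11.5% of the 13109 windows of tested genes. Since the genes were chosen as a pathway with its targets, more of the word could be foreseen, and the count is a description. In the sequences, 5′ to 3′ along the gene, capitals mark GGAATG or its reverse complement CATTCC.
CCN2 (chr6:131951323-131951622, minus strand): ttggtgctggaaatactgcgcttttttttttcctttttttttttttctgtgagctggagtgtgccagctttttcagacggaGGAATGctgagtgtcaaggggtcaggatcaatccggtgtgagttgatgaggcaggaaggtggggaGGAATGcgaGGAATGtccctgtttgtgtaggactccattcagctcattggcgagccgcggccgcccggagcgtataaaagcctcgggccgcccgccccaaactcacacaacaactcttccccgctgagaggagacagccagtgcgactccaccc
ANKRD1 (chr10:90921038-90921337, minus strand): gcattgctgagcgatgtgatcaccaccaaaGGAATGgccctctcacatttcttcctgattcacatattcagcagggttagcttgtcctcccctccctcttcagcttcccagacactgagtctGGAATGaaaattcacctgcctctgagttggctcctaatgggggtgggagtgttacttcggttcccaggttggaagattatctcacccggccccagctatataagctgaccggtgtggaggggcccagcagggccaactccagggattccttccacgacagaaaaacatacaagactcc
AMOTL2, second start (chr3:134374398-134374697, minus strand): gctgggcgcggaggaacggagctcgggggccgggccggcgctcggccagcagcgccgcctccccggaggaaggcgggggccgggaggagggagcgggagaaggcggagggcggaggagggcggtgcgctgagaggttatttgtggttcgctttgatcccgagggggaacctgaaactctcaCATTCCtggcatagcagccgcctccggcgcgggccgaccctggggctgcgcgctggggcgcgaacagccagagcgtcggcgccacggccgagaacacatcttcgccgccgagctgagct
LATS2 (chr13:21061537-21061836, minus strand): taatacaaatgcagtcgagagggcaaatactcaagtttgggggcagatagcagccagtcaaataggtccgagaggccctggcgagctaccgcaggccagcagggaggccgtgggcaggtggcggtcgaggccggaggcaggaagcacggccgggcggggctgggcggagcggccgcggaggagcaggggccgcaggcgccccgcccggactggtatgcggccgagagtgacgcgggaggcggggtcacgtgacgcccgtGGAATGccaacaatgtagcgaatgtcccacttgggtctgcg
YAP1 (chr11:102110197-102110496, plus strand): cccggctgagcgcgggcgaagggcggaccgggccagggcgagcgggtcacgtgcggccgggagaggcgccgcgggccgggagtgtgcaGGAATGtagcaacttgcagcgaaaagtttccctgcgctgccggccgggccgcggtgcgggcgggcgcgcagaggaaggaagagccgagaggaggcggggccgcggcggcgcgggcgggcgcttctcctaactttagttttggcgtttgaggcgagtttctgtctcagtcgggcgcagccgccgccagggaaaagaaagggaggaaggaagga

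CCN2 had 3 copies of the word, beginning at positions -169, -104 and -95 counted from the start, and ANKRD1 had 2, at positions -220 and -128. The word of YAP1 began at position -162, that of AMOTL2 at -69 on the other strand, and that of LATS2 lay just inside the transcript at position 10. The AP-1 word TGANTCA, which reads alike on both strands apart from its middle base, was found in 1 of the 9 windows, that of ANKRD1 at position -195. It lay in 7.71% of all windows and in 5.32% of the windows of tested genes. Neither word was found for TEAD3, for either start of WWTR1 or for the first start of AMOTL2. A match is a description of the letters in the window and not a measured binding site.

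**Figure D1:**
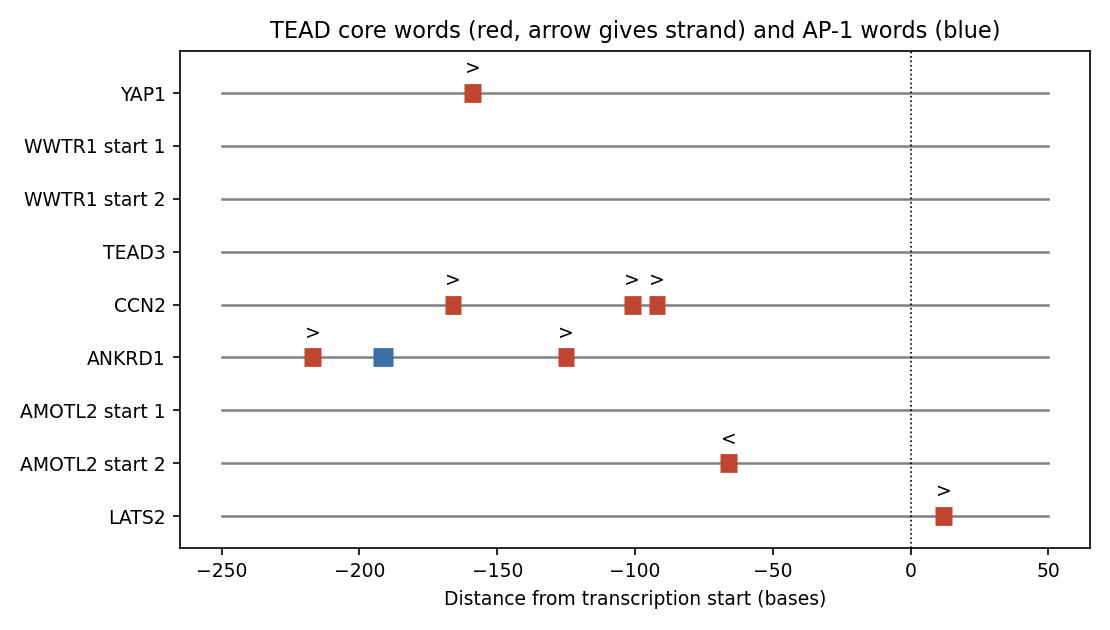
Position of the TEAD core word (red, arrow for strand) and the AP-1 word (blue) in the start regions of the 7 genes with a RefSeq window, in bases from the transcription start (dotted line). CCN2 holds 3 TEAD words and ANKRD1 holds 2, with the AP-1 word between them.

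Depth was alike in all libraries, at 25180000 to 26500000 reads as worked out from the steps of the FPKM values of short genes. PPARGC1A, the targeted gene, stood at 0.400, 0.354 and 0.413 FPKM in siPGC1a libraries, against 0.932, 1.04 and 0.947 FPKM in siNC libraries. These low levels rest on about 97 to 120 reads in siPGC1a and 260 to 290 reads in siNC libraries. The gene lay below the filter of a mean of 1 FPKM applied to all other genes. The melanocyte factor SOX10 averaged 230.0 ± 11.9 FPKM in siPGC1a and 246.3 ± 10.3 FPKM in siNC libraries (SD, n = 3 each). The 7 melanocyte markers summed to 474.8 to 514.4 FPKM in siPGC1a and 645.3 to 667.3 FPKM in siNC libraries, and 4 of the 6 tested fell, where 22.5% of all tested genes fell. Nearly all of that sum was SOX10 and DCT, and DCT averaged 253.3 ± 12.4 FPKM in siPGC1a and 393.9 ± 11.2 FPKM in siNC libraries (SD, n = 3 each). The other melanocyte markers averaged at most 7.24 FPKM in either group. Of 5 fibroblast markers 3 were tested and all 3 fell, beside the same 22.5%, with sums of 9.17 to 10.7 FPKM in siPGC1a and 13.3 to 14.2 FPKM in siNC libraries. Keratinocyte markers summed to 20.7 to 25.8 FPKM in siPGC1a and 20.5 to 21.4 FPKM in siNC libraries, almost all of it KRT10, while KRT5 was at most 0.009 FPKM. The immune markers summed to 0.806 to 1.22 FPKM in siPGC1a and 0.782 to 1.33 FPKM in siNC libraries, and PTPRC, which marks all white blood cells, was listed at 0 in all 6. The 2 endothelial markers summed to 0.059 to 0.089 FPKM in siPGC1a and 0.105 to 0.171 FPKM in siNC libraries. The part of these marker differences in the results below was not tested.

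After the PPARGC1A siRNA the genes of this pathway moved both ways. All 10 passed the filter of a mean of 1 FPKM, 3 rose (TEAD1, TEAD4 and LATS2), 5 fell (YAP1, TEAD3, CCN1, CCN2 and AMOTL2), and WWTR1 and ANKRD1 did not pass (limma on log2(FPKM + 1), Benjamini-Hochberg adjusted p below 0.05 over all 12020 genes tested). That is 8 of 10 called, where 48.1% of all tested genes were called, 25.6% higher and 22.5% lower. The 3 values of each group did not overlap for 7 of the 10 genes, against 57.2% of tested genes. The changes were small: the median size of the difference was 0.23 on the log2(FPKM + 1) scale over the 10 genes, against 0.15 over all tested genes and 0.26 over all called ones. The signed median was -0.12 over the 10 genes and 0.01 over all tested genes. In mean level the 10 genes lay above 36.5% (LATS2) to 97.6% (WWTR1) of the tested genes. Neither the shares nor the medians of all tested genes were matched for level, so they are not those of genes of like level. Differences below are on that log2 scale with siNC subtracted from siPGC1a, where the added 1 makes the change of a low gene look smaller than it is, and p-values named adjusted are from the limma fit.

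**Figure D2:**
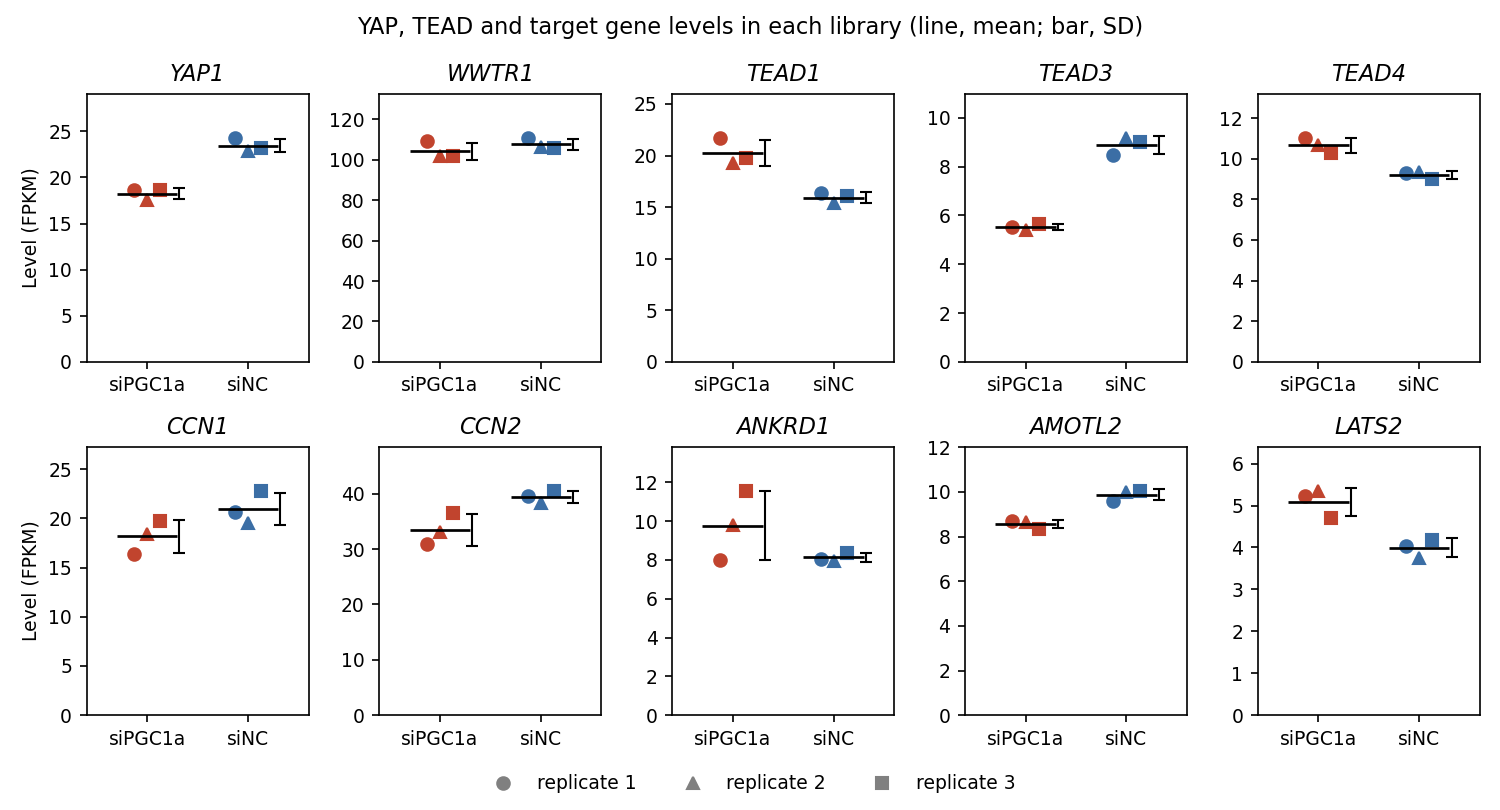
Level in FPKM of each of the 10 genes in the 3 siPGC1a libraries (red, left) and the 3 siNC libraries (blue, right), with symbols for replicates, a line for the mean and a bar for the SD. TEAD3 and YAP1 are lower in all 3 siPGC1a libraries, TEAD1, TEAD4 and LATS2 are higher in all 3, and the ranges of WWTR1, CCN1 and ANKRD1 overlap.

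Of the 2 coactivator genes, YAP1 fell and WWTR1 did not pass the test. YAP1 stood at 18.6, 17.6 and 18.6 FPKM in siPGC1a libraries, against 24.3, 22.8 and 23.2 FPKM in siNC libraries. Every siPGC1a library lay below every siNC library, and the ratio of the means was 0.778. The difference was -0.34 (SE 0.043, 95% interval -0.44 to -0.25, limma adjusted p = 0.000187, exact two-sided permutation p = 0.1, the smallest that 3 against 3 can give). In such bulk RNA, fewer cells with the transcript and less transcript per cell cannot be told apart.

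WWTR1 stood at 109.1, 101.9 and 101.8 FPKM in siPGC1a libraries, against 110.7, 106.4 and 105.8 FPKM in siNC libraries. The groups overlapped, and the difference of -0.05 had a 95% interval of -0.14 to 0.04 (limma adjusted p = 0.373, exact permutation p = 0.3). It was -0.13 and past the threshold with quantile normalization (adjusted p = 0.0434) and -0.08 without siPGC1a replicate 1 (adjusted p = 0.13), and the 16 alternatives gave differences of -0.13 to -0.02 with an adjusted p of 0.0434 to 0.73. WWTR1 was the most abundant of the 10 genes, above 97.6% of the tested genes in mean level. Per length of transcript, the ratio of YAP1 to WWTR1 was 0.170, 0.172 and 0.183 in siPGC1a libraries, against 0.219, 0.215 and 0.220 in siNC libraries. The ratio was lower in 3 of 3 siPGC1a libraries than in any siNC library (exact two-sided permutation p = 0.1). The summed level of both coactivators was 119.5 to 127.7 FPKM in siPGC1a libraries and 129.1 to 134.9 FPKM in siNC libraries, also without overlap (exact permutation p = 0.1).

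The TEAD genes, which encode the DNA-binding partners of YAP and TAZ, divided: TEAD1 and TEAD4 rose and TEAD3 fell. TEAD3 had the largest difference of the 10 genes. It stood at 5.53, 5.42 and 5.66 FPKM in siPGC1a libraries, against 8.48, 9.16 and 9.01 FPKM in siNC libraries. The groups were far apart relative to their spread, with a ratio of 0.623 and a difference of -0.60 (SE 0.046, limma adjusted p = 1.19e-05, exact permutation p = 0.1). Only 2.73% of tested genes differed by more in either direction. The values rest on about 420 to 450 reads in siPGC1a and 680 to 710 reads in siNC libraries.

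TEAD1 stood at 21.7, 19.3 and 19.7 FPKM in siPGC1a libraries, against 16.4, 15.4 and 16.05 FPKM in siNC libraries. All 3 siPGC1a libraries were above the siNC range (ratio 1.27, difference 0.32, SE 0.051, limma adjusted p = 0.000727, exact permutation p = 0.1). TEAD4 stood at 11.01, 10.7 and 10.3 FPKM in siPGC1a libraries, against 9.28, 9.34 and 8.98 FPKM in siNC libraries. It too was higher in 3 of 3 libraries (ratio 1.16, difference 0.19, SE 0.043, limma adjusted p = 0.00523, exact permutation p = 0.1). TEAD2, the family member outside the 10 genes, fell, with 9.49, 9.70 and 9.59 FPKM in siPGC1a libraries, against 10.9, 11.8 and 11.02 FPKM in siNC libraries (difference -0.21, limma adjusted p = 0.0040).

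The 4 TEAD transcripts together overlapped in sum between the groups, at 45.02 to 47.7 FPKM in siPGC1a and 45.02 to 45.7 FPKM in siNC libraries (exact permutation p = 0.7), while their make-up did not. TEAD1 made up 43.9 ± 1.37% of the sum in siPGC1a libraries and 35.2 ± 1.42% in siNC libraries (SD, n = 3 each). TEAD3 made up 12.0 ± 0.448% in siPGC1a and 19.6 ± 0.678% in siNC libraries, TEAD4 23.2 ± 0.463% in siPGC1a and 20.3 ± 0.354% in siNC libraries, and TEAD2 20.9 ± 0.867% in siPGC1a and 24.8 ± 0.918% in siNC libraries (SD, n = 3 each). None of the 4 shares overlapped between the groups (exact two-sided permutation p = 0.1 for each). The shares of a library add up to the whole, so they are not independent of each other. They restate the differences of the single genes, none of which overlapped either. TEAD1 was the most abundant TEAD transcript in every library, and TEAD3 was the least abundant in all but siNC replicate 3, where TEAD4 was.

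**Figure D3:**
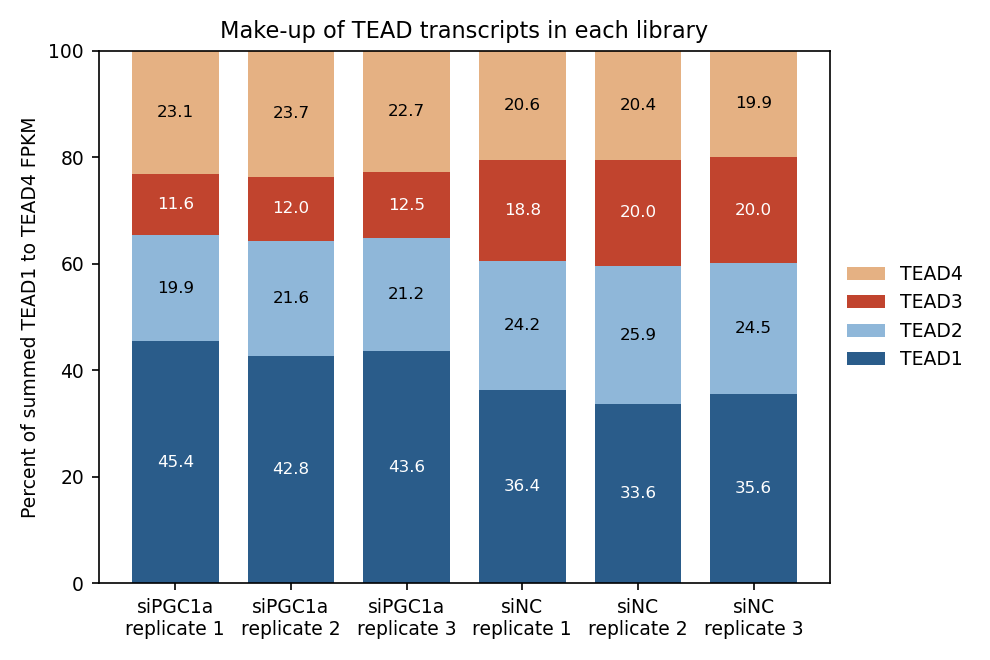
Share of each TEAD gene in the summed TEAD1 to TEAD4 FPKM of each library, in percent, with siPGC1a libraries on the left and siNC libraries on the right. TEAD3 takes 11.6 to 12.5% in siPGC1a and 18.8 to 20.04% in siNC libraries, and TEAD1 takes 42.8 to 45.4% in siPGC1a and 33.6 to 36.4% in siNC libraries.

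The matricellular targets CCN1 and CCN2, secreted proteins that bind integrins and are the most used readouts of YAP and TAZ, were both lower. CCN2 stood at 30.9, 33.0 and 36.4 FPKM in siPGC1a libraries, against 39.5, 38.3 and 40.4 FPKM in siNC libraries. The groups did not overlap, although the siPGC1a libraries were spread more widely (SD 2.80 FPKM in siPGC1a and 1.04 FPKM in siNC, ratio 0.849). The difference was -0.23 (SE 0.057, limma adjusted p = 0.00794, exact permutation p = 0.1). The CCN2 call ended when no filter on low genes was used (adjusted p = 0.0536; the 16 alternatives gave 0.000976 to 0.0536).

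CCN1 stood at 16.4, 18.4 and 19.8 FPKM in siPGC1a libraries, against 20.7, 19.5 and 22.7 FPKM in siNC libraries. Here the groups overlapped, since siPGC1a replicate 3 lay above siNC replicate 2 (ratio 0.866, difference -0.20, SE 0.072, limma adjusted p = 0.0449, exact permutation p = 0.2). This call is the weakest of the 8. It ended without a filter (adjusted p = 0.186), with median ratio size factors (0.0667), and without siPGC1a replicate 1 (0.157, difference -0.13), siPGC1a replicate 2 (0.0669), siNC replicate 1 (0.0700) or siNC replicate 3 (0.165). The adjusted p lay between 0.00604 and 0.186 among the 16 alternatives.

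ANKRD1, a nuclear ankyrin-repeat protein and muscle stress gene, did not pass the test. It stood at 7.99, 9.79 and 11.5 FPKM in siPGC1a libraries, against 8.05, 7.96 and 8.38 FPKM in siNC libraries. Replicates 2 and 3 of siPGC1a were above all siNC libraries and replicate 1 was within their range. The difference of 0.23 did not pass (SE 0.098, 95% interval 0.01 to 0.45, limma adjusted p = 0.0843, exact permutation p = 0.3), and it depended on that replicate. Without siPGC1a replicate 1 it was 0.35 (adjusted p = 0.00484), and without siPGC1a replicate 3 it was 0.11 (adjusted p = 0.26; the 16 alternatives gave 0.00484 to 0.288). Within siPGC1a, ANKRD1, CCN1 and CCN2 ranked the 3 libraries alike, with replicate 1 lowest and replicate 3 highest. In siNC all 3 genes were highest in replicate 3. The target AMOTL2 ran the other way in siPGC1a, from 8.71 FPKM in replicate 1 to 8.34 FPKM in replicate 3. LATS2 was lowest in siPGC1a replicate 3, at 4.71 FPKM. The keratinocyte marker KRT10 shared the order, with 20.3, 21.6 and 25.4 FPKM in siPGC1a libraries. This order was picked out after the values were seen, and how many tested genes share it was not counted.

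The feedback targets differed in direction. AMOTL2 stood at 8.71, 8.65 and 8.34 FPKM in siPGC1a libraries, against 9.59, 9.997 and 10.02 FPKM in siNC libraries, and was lower in 3 of 3 libraries (ratio 0.868, difference -0.18, SE 0.042, limma adjusted p = 0.00578, exact permutation p = 0.1). LATS2 stood at 5.24, 5.34 and 4.71 FPKM in siPGC1a libraries, against 4.04, 3.75 and 4.19 FPKM in siNC libraries, and was higher in 3 of 3 (ratio 1.28, difference 0.29, SE 0.058, limma adjusted p = 0.00276, exact permutation p = 0.1). LATS1, the paralogous kinase, rose as well, with 4.15, 3.96 and 4.17 FPKM in siPGC1a libraries, against 3.42, 3.07 and 3.50 FPKM in siNC libraries (difference 0.23, limma adjusted p = 0.00604). For neither LATS kinase did the groups overlap.

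**Figure D4:**
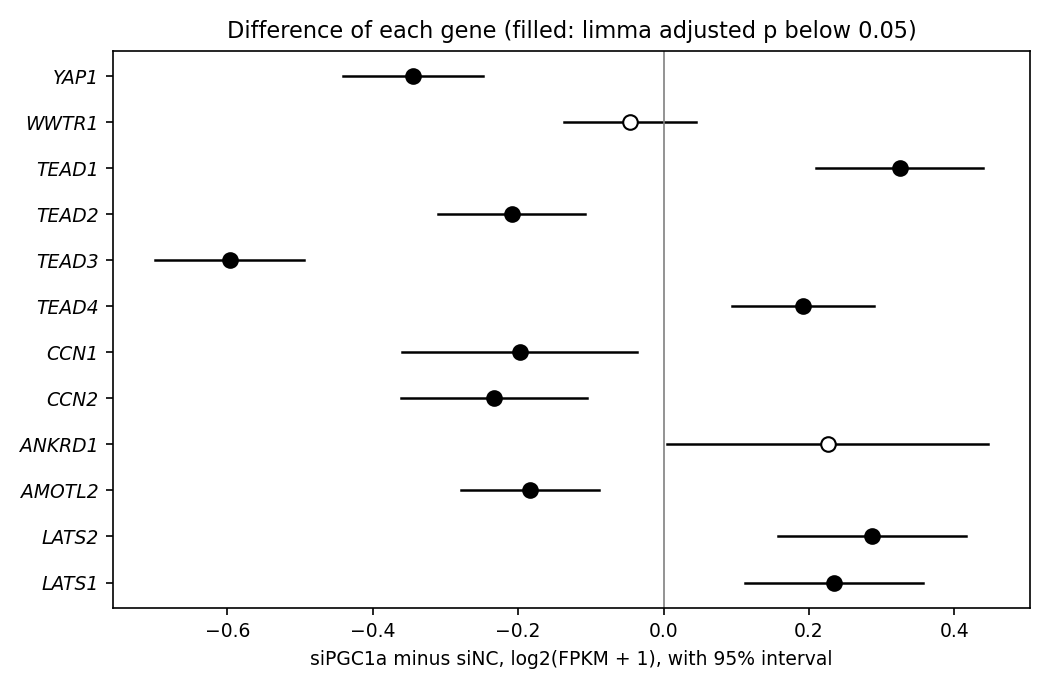
Difference in log2(FPKM + 1) of each gene, siPGC1a minus siNC, with its 95% interval from the limma fit; filled points passed the adjusted p of 0.05. TEAD3 lies lowest at -0.60, TEAD1 highest at 0.32, and WWTR1 and ANKRD1 are the open points. TEAD2 and LATS1 are shown for comparison.

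Levels per length of transcript ran in the order WWTR1, CCN2, TEAD1, YAP1, CCN1, TEAD4, ANKRD1, AMOTL2, TEAD3, LATS2 in siPGC1a libraries, against WWTR1, CCN2, YAP1, CCN1, TEAD1, AMOTL2, TEAD4, TEAD3, ANKRD1, LATS2 in siNC libraries. In the siPGC1a order the neighbours YAP1 and CCN1, TEAD4 and ANKRD1, and ANKRD1 and AMOTL2 overlapped between libraries. In the siNC order only TEAD4 and TEAD3 did. TEAD1 lay above YAP1 in every siPGC1a library, while in every siNC library YAP1 lay above TEAD1. The least abundant of the 10, LATS2, was still above 36.5% of the tested genes in mean level and rested on about 540 reads or more per library.

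The counts of called genes in the lists below stand against 25.6% of all tested genes called higher and 22.5% called lower, and nothing is read as particular to a list. Of 18 genes of the Hippo kinase chain other than LATS2, 17 were tested, 6 rose, 4 fell and 7 did not pass, with a median difference of 0.01, against 0.01 over all tested genes. MOB1B, a cofactor of LATS kinases, rose to 6.50 ± 0.411 FPKM in siPGC1a, against 5.13 ± 0.316 FPKM in siNC (n = 3 each, limma adjusted p = 0.00267). MAP4K5, a kinase of a family that can phosphorylate LATS, rose to 15.2 ± 1.23 FPKM in siPGC1a, against 12.5 ± 0.793 FPKM in siNC (n = 3 each, limma adjusted p = 0.0081). The MAP4K5 call ended without a filter (adjusted p = 0.0565). TAOK3, a kinase upstream of MST, fell to 5.32 ± 0.206 FPKM in siPGC1a, against 7.29 ± 0.118 FPKM in siNC (n = 3 each, limma adjusted p = 0.000121). The count of rises was 3 without a filter, without siPGC1a replicate 1 and without siNC replicate 3.

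Of 16 junction, polarity, angiomotin and LIM genes, 12 were tested, 2 rose, 5 fell and 5 did not pass, with a median of -0.10, where 48.1% of all tested genes were called. AMOT, the founding angiomotin and a relative of AMOTL2, fell to 8.29 ± 0.548 FPKM in siPGC1a, against 11.6 ± 0.396 FPKM in siNC (n = 3 each, limma adjusted p = 0.000144). TJP1, the tight junction scaffold ZO-1, fell to 4.53 ± 0.245 FPKM in siPGC1a, against 5.96 ± 0.309 FPKM in siNC (n = 3 each, limma adjusted p = 0.000871). LIMD1, a LIM protein that binds LATS, fell to 4.61 ± 0.520 FPKM in siPGC1a, against 6.03 ± 0.0928 FPKM in siNC (n = 3 each, limma adjusted p = 0.00264). SCRIB, a polarity scaffold, rose to 21.2 ± 1.06 FPKM in siPGC1a, against 18.0 ± 0.883 FPKM in siNC (n = 3 each, limma adjusted p = 0.00626). The third angiomotin gene, AMOTL1, chosen after its values were seen, fell as well (difference -0.21, limma adjusted p = 0.00412). The count of rises was 1 without siNC replicate 2 and with a filter of 5 FPKM.

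Of 17 other genes of a published YAP and TAZ target signature, all 17 were tested, 5 rose, 7 fell and 5 did not pass, with a median of 0.03, again beside 25.6% higher and 22.5% lower among all tested genes. PTPN14, a phosphatase that binds YAP, stands on both this list and the junction list and did not pass. NT5E, the cell surface nucleotidase CD73, rose most, to 56.8 ± 2.01 FPKM in siPGC1a, against 34.0 ± 1.69 FPKM in siNC (n = 3 each, difference 0.72, limma adjusted p = 4.77e-06). CCDC80, a matrix protein, fell to 0.661 ± 0.0381 FPKM in siPGC1a, against 1.63 ± 0.0108 FPKM in siNC (n = 3 each, difference -0.66, limma adjusted p = 2.71e-05). F3, also among the falls, averaged 0.717 FPKM in siPGC1a and 1.34 FPKM in siNC libraries. CCDC80 and F3 lay below 1 FPKM in every siPGC1a library and passed the filter only through their siNC values. The filter thus let them enter the count only as falls. MYOF, a membrane repair protein, fell to 7.15 ± 0.192 FPKM in siPGC1a, against 9.51 ± 0.105 FPKM in siNC (n = 3 each, limma adjusted p = 0.000113). IGFBP3, which binds insulin-like growth factors, fell to 16.6 ± 0.382 FPKM in siPGC1a, against 21.4 ± 0.503 FPKM in siNC (n = 3 each, limma adjusted p = 0.000125). With a filter of 5 FPKM, 3 of the falls were counted. Of this signature and the 7 further targets below, 18 genes had a RefSeq start window, and 8 of them held GGAATG in at least 1 window. That count is per gene, over up to 3 windows each. The 14.0% of all windows with the word is per window, so the numbers are not alike. Also per window, GGAATG lay in 12% for genes called higher in siPGC1a and 11.5% for genes called lower.

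Of 7 further target genes 4 were tested, 1 fell and 3 did not pass, with a median of 0.01. THBS1, thrombospondin-1, an adhesive matrix glycoprotein, fell to 33.9 ± 0.715 FPKM in siPGC1a, against 52.3 ± 3.66 FPKM in siNC (n = 3 each, difference -0.61, limma adjusted p = 1.89e-05). Among the other 4 CCN genes only CCN3 passed the filter, and it fell. It stood at 20.4, 21.7 and 21.96 FPKM in siPGC1a libraries, against 30.4, 32.2 and 30.2 FPKM in siNC libraries (difference -0.51, limma adjusted p = 2.49e-05). Whether it fell by more than CCN1 and CCN2 was not tested. Of the other TEAD gene and the 4 vestigial-like partners of TEAD, TEAD2 and VGLL4 were tested, and VGLL4, which competes with YAP for TEAD, did not pass (13.2 ± 0.221 FPKM in siPGC1a and 13.4 ± 0.0942 FPKM in siNC, SD, n = 3 each, limma adjusted p = 0.656).

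**Figure D5:**
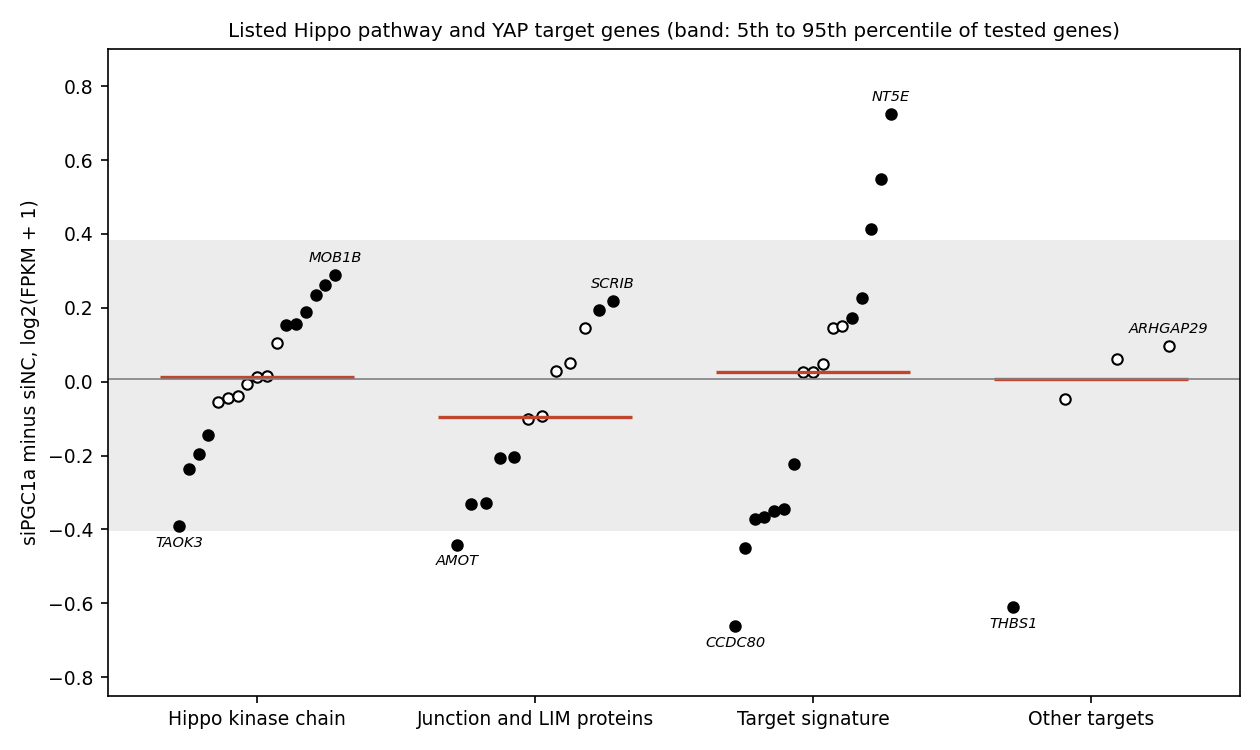
Difference in log2(FPKM + 1), siPGC1a minus siNC, of each tested gene of 4 lists, with the lowest and highest gene of each list named; filled points passed the adjusted p of 0.05 and red lines are list medians. The grey band runs from the 5th to the 95th percentile of all tested genes (-0.40 to 0.38), and list medians lie between -0.10 and 0.03.

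The shares of genes holding certain short words in a 3' UTR differed between genes that fell and genes that rose. ACACCT lay in an annotated 3' UTR of 50.6% of the genes that fell and 24.2% of those that rose, against 35.6% of all 10813 tested genes with such a UTR. A second word, GTCTTC, lay in 44.8% of the genes that fell and 28% of those that rose, against 36.2% of all. Both were searched because earlier results of these data had singled them out, so the contrasts are a description. A gene was counted if any of its annotated transcripts held the word. UTR length and base content, which also bear on how often a word occurs, were not compared between these sets of genes. GTCTTC had 2 sites in TEAD1 and 1 site each in WWTR1 and AMOTL2, and 0 in the other 7 of the 10 genes. Of the 10 genes, TEAD1, TEAD3 and CCN1 held ACACCT in their longest GENCODE 3' UTR, and these sites are shown with the word in capitals.
TEAD3, position 49 after the stop codon: tctcctctccACACCTgcctggcacc
TEAD3, position 298: gggataggggACACCTtcagcctcca
CCN1, position 23: tttccagggcACACCTagacaaacaa
TEAD1, position 1760: ccctgtctcaACACCTgctttgaccc
TEAD1, position 3439: taatcaactcACACCTgtttaaagag
TEAD1, position 4408: gtcagtgttcACACCTgtaacattag

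TEAD3 and CCN1 were among the genes that fell, while TEAD1, with 3 sites in a 3' UTR of 7261 bases, rose. The genes that fell with 0 sites of ACACCT were YAP1, CCN2 and AMOTL2. The part of either word in these differences was not tested. On the opposite strand, annotated exons overlap those of YAP1, WWTR1 and CCN2, and whether reads were counted by strand is not known from the labels. The antisense genes were listed at mean levels of 0.104 FPKM in siPGC1a and 0.02 FPKM in siNC libraries for AP000942.2, opposite YAP1. WWTR1-AS1 was at 0.115 FPKM in siPGC1a and 0.154 FPKM in siNC libraries, and AL133346.1, opposite CCN2, at 0.183 FPKM in siPGC1a and 0.182 FPKM in siNC libraries.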

How the data were processed

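The authors deposited FPKM values, per the file headers 1 column per library and 1 row per gene symbol. STAR, Picard, featureCounts and DESeq2 with build hg19 are named per the submitters' processing notes, with no versions or roles, and neither the annotation nor the strand setting is stated there. From these values, genes with a mean of at least 1 FPKM over the 6 libraries, and PPARGC1A whatever its level, were put on the log2(FPKM + 1) scale. The groups were then tested two-sided with a trended limma fit without a block (limma 3.58.1, R 4.3.3). P-values were adjusted by Benjamini-Hochberg over 12020 genes, with a threshold of 0.05. Single values were also compared by exact two-sided permutation of the 6 libraries. No library was a copy of another: at most 1.85% of nonzero values were equal between libraries of a group and at most 4.54% between any 2 libraries.

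Depth was worked out from miRNA genes, whose values, with GENCODE v29 exon lengths, came out whole within 0.1 read for 98.3 to 100% of 58 to 70 values per library. Only low values were used, and the depth was chosen, within a set range, to make this share highest. The share is therefore no check of the depth. Reads per gene use the same lengths and are approximate. The annotation is of another build than the table. Symbols were matched by name or older symbol. The 10 genes and all lists were chosen with earlier results of these data known, and 1 listed gene is not reported here. Named genes were the 10, PPARGC1A, TEAD2, LATS1 and, per pathway list, the 3 smallest adjusted p in the main direction and 1 in the other. AMOTL1, F3, PTPN14, VGLL4, single cell type markers and the antisense genes were named outside this rule. Tried alternatives were pseudocounts, filters, scalings, robust and weighted fits, a replicate block and leaving out each library.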

Additional observations from a re-analysis of the deposited data

How the results depend on the processing

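Of the 10 genes, YAP1, TEAD1, TEAD3, TEAD4 and AMOTL2 kept their direction and call under all 16 alternatives, as did PPARGC1A, and LATS2 did so under the 15 that tested it, since a filter of 5 FPKM drops it. No gene of the 10 changed direction. Without a filter 3 of the 10 were called lower, with CCN1 (-0.20) and CCN2 (-0.23) no longer past the threshold. The cause was not tested. Median ratio size factors gave CCN1 a difference of -0.18 with no call. Quantile normalization gave WWTR1 -0.13, past the threshold (adjusted p = 0.0434). Leaving out 1 library at a time gave CCN1 -0.26 to -0.13 and ANKRD1 0.11 to 0.35. The number of called genes over the table ran from 4126 with a filter of 5 FPKM to 6379 with the weighted fit (array weights). The filter of 5 FPKM tests fewer genes than the main fit. Without a filter more genes were tested, and 4723 were called. These counts are therefore not shares of the same number of genes. Scaling moved the median of all genes by less than 0.1.

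With the replicate number as a block (replicate block), ANKRD1 passed at the same difference of 0.23 (adjusted p = 0.0457). The labels do not say that equal numbers share a culture. Deviations from the group means correlated at 0.077, 0.261 and -0.058 between libraries of equal number. Such deviations cancel within a group, so these values cannot show whether libraries of equal number share a culture or day. Of the siPGC1a libraries, replicates 1 and 2 correlated best with the siNC library of their own number, and replicate 3 with siNC replicate 1 (0.254). Of the siNC libraries, only replicate 2 correlated best with its own number. No other call among the 10 genes changed under the block.

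At about 400 to 590 reads per library for ANKRD1, and 22000 to 25000 for WWTR1, counting error is smaller for WWTR1, and 3 libraries per group limit all comparisons.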
